A study of Zea mays with 2 samples.

Results

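The regions described here are the loop-poor windows of the maize chromosome arms, namely the 1-Mb windows in which the fewest chromatin loops were called. Windows were laid from the start of chromosomes 1 to 10 of B73 AGPv4. Those within 10 Mb of a chromosome end, or within 15 Mb of a set midpoint on each chromosome, were left out. For each remaining window, the loops whose upstream anchor started in it were counted in both replicates and summed, and the 250 windows with the lowest sums were taken, with ties broken by chromosome and then by start. They are 250 of 1601 windows that could be chosen, and of 2111 windows in all. The other 1351 arm windows serve as the comparison. The 300 windows around the midpoints are called the excluded middle, and the 210 windows at the chromosome ends were not used.

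Leaves of the maize inbred line B73 at stage v04 were profiled by Hi-C, from plants grown in a static greenhouse, in replicates 1 and 2 with 4 plants in each. Both replicates are of the same genotype, tissue and stage, and no treatment, mutant or other tissue is compared. Whole leaves hold several cell types, so each call is a mixture over them. Libraries were made with the Dovetail Hi-C kit from ground frozen tissue crosslinked with formaldehyde, and replicate 1 and replicate 2 were called separately.

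Hi-C crosslinks chromatin, joins DNA ends that lie close together in the nucleus and sequences the joined pairs, so that the number of pairs reports how often loci meet. A loop is a pair of anchors that meet more often than their surroundings do, and a TAD-like domain is a stretch of DNA whose loci meet each other more often than they meet loci outside it. In maize, genes are concentrated towards the ends of the chromosome arms, while the regions around the centromeres are rich in retrotransposons and heterochromatin. Loops in large plant genomes have often been found between islands of active genes.

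The lists held 17201 loops and 17978 domains in replicate 1, and 25917 loops and 18739 domains in replicate 2. Replicate 1 loops had anchors of 5, 10 or 25 kb, while all replicate 2 anchors were 10 kb, and the replicates were called with different versions of the loop caller. Loop numbers are therefore compared between sets of windows, within a replicate or as the sum over both, and a difference between the replicates in one window cannot be told apart from a difference in calling. The lists give calls and not the contacts of regions without a call, so the depth of each window is unknown. A region that cannot be mapped and a region without loops cannot be told apart from the loop list.

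Few loops started in the chosen windows, as the rule requires, and the following counts are a description of the choice. Over both replicates, the loop-poor windows held 0 to 11 loops each, with a median of 8, whereas the other arm windows held 11 to 58, with a median of 23. In replicate 1 a loop-poor window held 0 to 7 loops (median 3) and another arm window 2 to 23 (median 9). In replicate 2 a loop-poor window held 0 to 10 loops (median 4) and another arm window 4 to 37 (median 14). Both ranges overlap within each replicate. In total, 734 loops of replicate 1 and 1069 loops of replicate 2 started in the loop-poor windows, against 12898 and 19832 in the other arm windows. The loop-poor windows, 15.6% of the arm windows, thus held 5.38% (replicate 1) and 5.11% (replicate 2) of the arm loops.

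At the edge of the choice lay 44 windows with 11 loops each. The tie rule took 26 of them, all on chromosomes 1 to 6, and left 18, all on chromosomes 7 to 10. On both sides of this edge the median was 4 loops in replicate 1 and 7 in replicate 2, and 42 further windows held 12 loops. The edge is a rank and not a gap in the data. Counted by loop starts over both replicates, 8 chosen windows held none, 20 held 1 to 3, 69 held 4 to 6, 83 held 7 to 9 and 70 held 10 or 11. Windows without a loop start numbered 19 in replicate 1, where 1.19% of all arm windows had none, and 13 in replicate 2, where 0.812% had none. The rule used these counts.

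To look at loop numbers that the choice had not used, the rule was applied to one replicate and the loops of the other replicate were counted. In the 250 windows lowest in replicate 2, the median was 3 replicate 1 loops, compared with 9 in the other arm windows. The means were 3.66 and 9.41 loops, a ratio of 0.389. In the 250 windows lowest in replicate 1, the median was 5 replicate 2 loops, compared with 14 in the other arm windows. The means were 5.77 and 14.4 loops, a ratio of 0.400. Windows low in one replicate were therefore low in the other in both directions. Of the 250 lowest windows of each replicate, 157 were the same (62.8% of each list), where the background share of such windows is 15.6%. The rest of each list was not among the 250 lowest of the other replicate. A few windows were not low there at all. Of those chosen by replicate 2, 12 lay above the arm median of 8 replicate 1 loops. Of those chosen by replicate 1, 6 lay above the arm median of 13 replicate 2 loops.

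**Figure D1:**
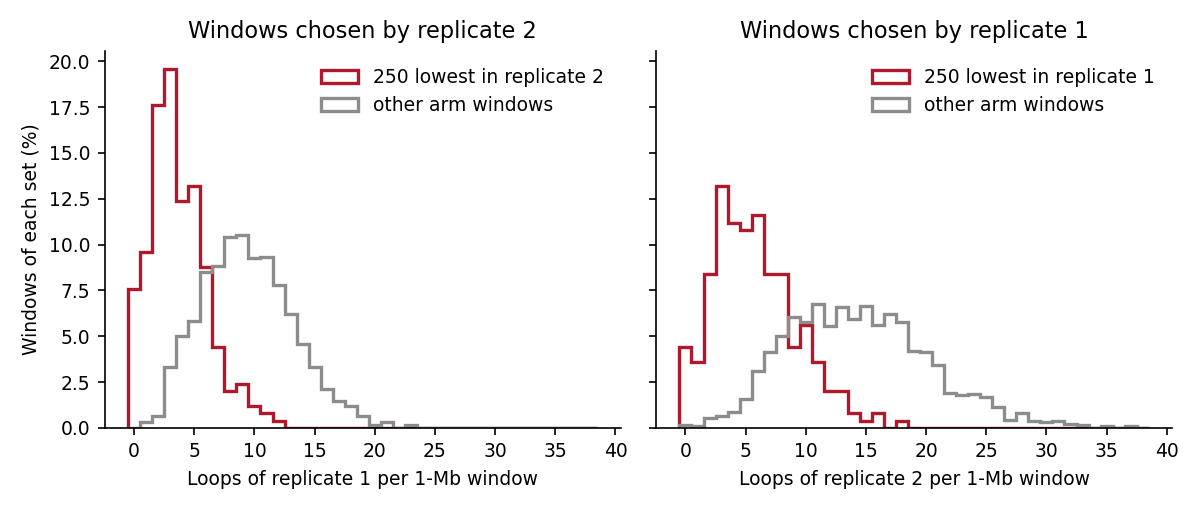
Distribution of loops per 1-Mb window in the replicate that did not choose the windows. The x axis is the number of loops that start in a window and the y axis the percentage of windows of each set, for the 250 lowest windows (red) and the other arm windows (grey). The chosen windows peak at lower counts in both panels, with medians of 3 against 9 loops (left) and 5 against 14 loops (right), and the distributions overlap.

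Downstream anchors, which the rule did not count but which belong largely to the same loops, were sparse as well. A loop-poor window held on average 3.24 downstream anchors in replicate 1 and 4.56 in replicate 2, against 9.48 and 14.6 in the other arm windows. No downstream anchor lay in 22 loop-poor windows of replicate 1 (background 1.37%) and in 12 of replicate 2 (background 0.75%). Anchors of either kind were missing in 13 and 10 loop-poor windows. The other arm windows each held at least 2 loop starts in replicate 1 and 4 in replicate 2, so none could lack an anchor. The window chr1:101000001-102000000 stood at the other extreme, since it had 10 downstream anchors in replicate 1 and 7 in replicate 2 while 5 and 6 loops started in it.

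Loops spanned much of the loop-poor windows even so. The share of bases that lay between the anchors of at least 1 loop was 58.3% in replicate 1 and 63.4% in replicate 2, against 82.8% and 89.9% in the other arm windows. In 12 loop-poor windows of replicate 1 and 5 of replicate 2 no base lay under a loop, and no other arm window was without one. A window in which a loop starts has bases under that loop by definition. Every other arm window held a loop start in each replicate, so none could be without such bases. These shares therefore depend on the loops that the rule counted, and they are a description only.

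The loops that did start in loop-poor windows were longer than those of the other arm windows. Their median length, taken between anchor starts, was 172.5 kb (replicate 1) and 140 kb (replicate 2), against 120 kb in both replicates for the other arm windows. Loops over 500 kb made up 8.58% and 7.30% of them, against 3.09% and 3.25%. Accordingly, 25.1% and 26.0% of them ended in a different 1-Mb window, against 16.1% and 16.0%. The median was not longer in each part of the arm. In the central section of the arms it was 125 and 110 kb in loop-poor windows, against 125 and 120 kb in the other arm windows.

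These loops also stood less far above their surroundings. Observed contacts exceeded those of the ring of pixels around a loop (the donut background of the caller) by a median factor of 4.05 in replicate 1 and 4.07 in replicate 2, against 4.97 and 4.47 for loops of the other arm windows. Median observed contacts did not move in one direction, with 24 and 27 contacts per loop in the loop-poor windows and 21 and 32 in the other arm windows. In replicate 1, where anchor size varies, 42.2% of the loops of loop-poor windows had 25-kb anchors and 19.6% had 5-kb anchors, against 24.0% and 34.6%. With 10-kb anchors only, the median length in loop-poor windows was 1.16 times that of the other arm windows, in place of 1.30 times with all anchors (means over the replicates), and the contact ratio 0.929 times, in place of 0.863. For loops of 60 to 150 kb with 10-kb anchors, where length and anchor size are nearly matched, the median expected contacts were 5.40 in replicate 1 (104 loops) and 8.86 in replicate 2 (360 loops), against 5.34 (2587 loops) and 9.21 (8282 loops). The local background around called loops of this length therefore differed by less than 1 contact between the sets, which bears on called loops only.

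Loops of loop-poor windows were found again in the other replicate less often. A partner that overlapped both anchors was called in the other replicate for 34.1% of the 734 replicate 1 loops (95% Wilson interval 30.7 to 37.6%) and for 23.4% of the 1069 replicate 2 loops (20.9 to 26.0%). In the other arm windows these shares were 47.8% (47.0 to 48.7%) and 31.1% (30.5 to 31.8%). The rule summed both replicates, so a loop called in both was counted in each, and a low sum selects against such loops. The rule also set the number of loops nearby. The part of either in these shares was not tested, so the shares and their intervals are a description only. The excluded middle had shares close to those of the loop-poor windows, 34.9% (32.1 to 37.8%) and 25.6% (23.5 to 28.0%). In all, 104 loops of loop-poor windows had identical anchors in both replicates, or 14.2% of replicate 1 and 9.73% of replicate 2 loops, against 19.5% and 12.7% in the other arm windows. The one with the most contacts joined chr3:34550001-34560000 and chr3:34650001-34660000, with 81 contacts in replicate 1 and 140 in replicate 2, at 11.1 and 8.72 times the donut background. This loop was picked for its identical anchors and its contacts, so it is an example and does not describe the other loops of loop-poor windows.

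Loop-poor windows were not spread evenly along the arms. With each arm cut into 3 sections of nearly equal length, the inner section next to the excluded middle held 171 of the 250 loop-poor windows (68.4%, 95% Wilson interval 62.4 to 73.8%), where 33.5% of all arm windows lie. The central section held 55 (22.0%, interval 17.3 to 27.5%) and the outer section 24 (9.60%, interval 6.54 to 13.9%). Loop-poor windows made up 31.9% of the 536 inner windows, 10.3% of the 534 central windows and 4.52% of the 531 outer windows. Neighbouring windows are not independent, so the intervals are too narrow, and no test was made because both replicates share the one set of windows.

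The share of loop-poor windows fell with distance from the midpoint. Of 100 arm windows at 15 to 20 Mb, 46 were loop-poor, and of the 100 at 20 to 25 Mb, 37 were. Then came 24 of 100 windows at 25 to 30 Mb, 50 of 200 at 30 to 40 Mb, 21.1% of 166 windows at 40 to 50 Mb and 11.7% of 375 windows at 50 to 75 Mb. Beyond 75 Mb loop-poor windows were rare, with 2.23% of 314 windows at 75 to 100 Mb and 2.85% of 246 windows farther out. The median distance was 32.5 Mb for loop-poor windows (quartiles 22.5 and 48.25 Mb) and 65.5 Mb for the other arm windows (39.5 and 90.5 Mb). The median number of loops over both replicates increased over the same bands, with 12 loops at 15 to 20 Mb and 28 loops beyond 100 Mb. The set therefore crowds towards the excluded middle, and it also holds windows up to 159.5 Mb from a midpoint.

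All 10 chromosomes carried loop-poor windows, in unequal shares. Chromosome 2 had 44 among 194 arm windows (22.7%), chromosome 6 had 27 among 124 (21.8%) and chromosome 4 had 36 among 196 (18.4%). Low shares were found on chromosome 8, with 11 of 131 (8.40%), chromosome 1, with 23 of 257 (8.95%), and chromosome 9, with 11 windows (10.1%). The tie rule favours low chromosome numbers, and both ends of this order rest on it. With all 44 tied windows taken, chromosome 10 had the highest share, with 24 of 100 windows in place of 17, and chromosome 1 the lowest. Chromosome 7 then had 28 windows in place of 24 (21.2%), chromosome 8 had 16 (12.2%) and chromosome 9 had 13 (11.9%). Among single arms, the side of lower coordinates of chromosome 6 stood out with 15 of 27 windows (55.6%). The side of higher coordinates of chromosome 2 had 33 of 123 (26.8%), the side of lower coordinates of chromosome 4 had 22 of 84 (26.2%), and that of chromosome 10 had 7 of 27 (25.9%), or 11 of 27 (40.7%) with all ties.

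**Figure D2:**
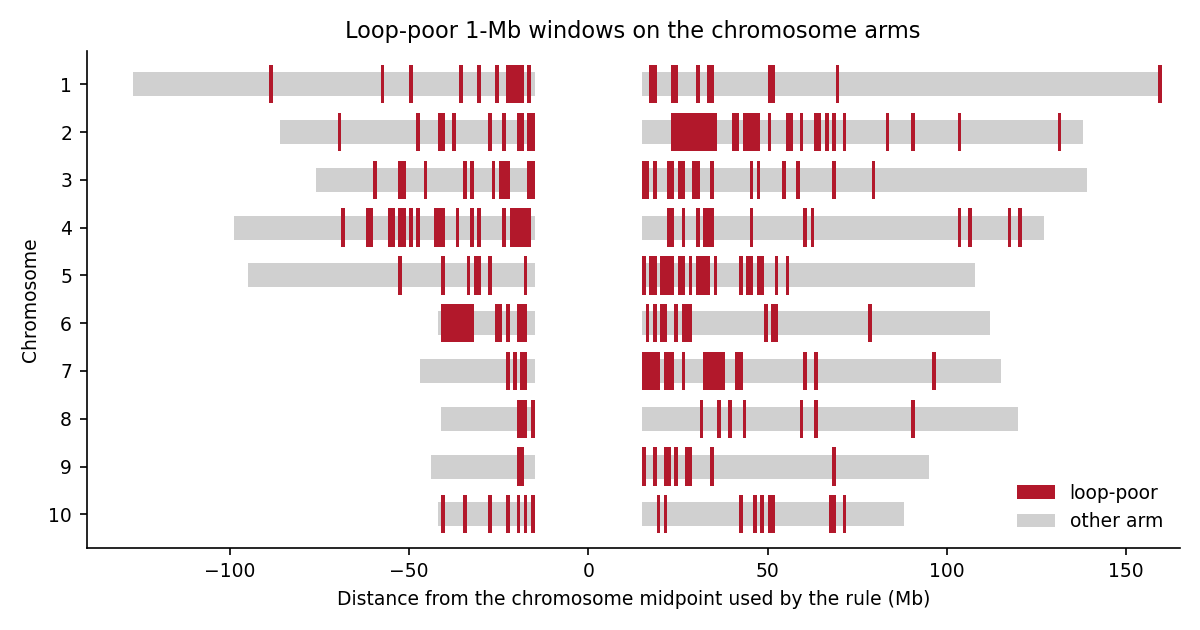
Positions of the loop-poor windows (red) among the other arm windows (grey) on chromosomes 1 to 10. The x axis is the distance from the chromosome midpoint in Mb, negative on the side of lower coordinates, and the gap in the middle is the excluded region. Red windows crowd next to the gap, where 46 of 100 windows at 15 to 20 Mb are loop-poor, and the longest runs lie on chromosomes 2 and 6.

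Many loop-poor windows adjoined one another. The 250 windows formed 153 runs, of which 102 were single windows and 35 were pairs. The 148 windows that adjoined another were 59.2% of the set. Runs of 3 or more windows numbered 16, with 78 windows on 8 chromosomes, and 15 of these 16 runs lay wholly in the inner section of an arm. Of the single windows, 55 lay in the inner section, 33 in the central and 14 in the outer. Of the 20 edges of the excluded middles, 8 had a loop-poor window next to them, where loop-poor windows were 15.6% of all arm windows.

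The longest run, chr2:119000001-132000000, covered 13 windows at 23.5 to 35.5 Mb from the midpoint. Its windows held 0 to 6 loops each in both replicates, 32 in replicate 1 and 35 in replicate 2, and the windows on either side of it held 9 and 7 loops in replicate 1 and 5 and 11 in replicate 2. Level 0 domains, the outermost domains of the hierarchy, covered all of its bases in both replicates. The 24 level 0 domains of replicate 1 had a median size of 570 kb and reached 1460 kb, and the 23 of replicate 2 had a median of 490 kb and reached 1400 kb. Window 7 of the run, chr2:125000001-126000000, had no loop, no anchor and no domain boundary in either replicate, and it lay inside a single level 0 domain, 1360 kb long in replicate 1 and 1400 kb long in replicate 2. Only 15.9% of the 82 domains of replicate 1 and 15.1% of the 86 of replicate 2 in this run had a partner in the other replicate, with both boundaries within 10 kb, against 441 of 1726 domains and 443 of 1770 domains in all loop-poor windows.

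**Figure D3:**
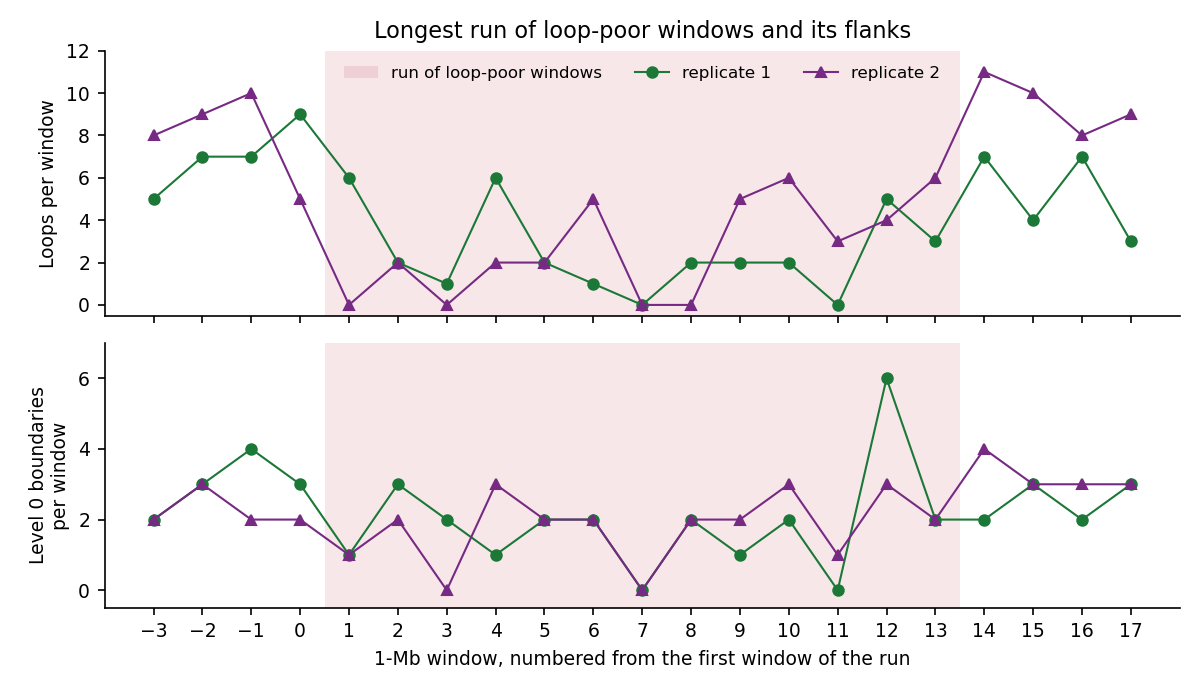
Loops (top) and level 0 boundaries (bottom) per 1-Mb window across the longest run of loop-poor windows (shaded, windows 1 to 13) and its flanks, for replicate 1 (green circles) and replicate 2 (purple triangles). Both replicates have 0 loops and 0 boundaries in window 7, and the replicates differ by up to 6 loops in other windows of the run.

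The second run, chr6:11000001-20000000, was of a different make-up. Its 9 windows lay 32.5 to 40.5 Mb from the midpoint, near the outer end of the arm, and held 14 loops in replicate 1 and 17 in replicate 2. Level 0 domains covered 72.8% of its bases in both replicates, and the uncovered bases lay in its first 4 windows, with 53, 0, 25 and 77% of bases covered in each replicate. In the first 3 of these no loop started and no anchor lay in either replicate. In replicate 2 all their bases lay under a loop, but 0% lay under a loop of at most 1 Mb. In replicate 1, 0% lay under any loop. Of the 44 domains of replicate 1 and the 48 of replicate 2 in this run, 4.55% and 4.17% had such a partner. The last 5 windows were fully covered and held 2 to 5 loops in replicate 1 and 1 to 6 in replicate 2. The run thus joins windows with gaps in the domain calls and almost no loop starts to fully covered windows with few loops.

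The third run, chr4:87000001-93000000, had 6 windows at 16.5 to 21.5 Mb, next to the excluded middle but for 1 window. It held 20 loops in replicate 1 and 22 in replicate 2, in windows of 3 to 5 and 2 to 7 loops. All its bases lay in level 0 domains, 12 in replicate 1 and 8 in replicate 2, and the largest of these reached 1790 kb and 1920 kb. Partners were found for 20.6% of its 34 domains in replicate 1 and 21.2% of its 33 in replicate 2. A run at chr7:89000001-95000000 also had 6 windows, and the tie was broken by chromosome. Level 0 domains covered 95.5% of the bases of that run in each replicate. There, 11.1% of 36 domains in replicate 1 and 7.69% of 52 in replicate 2 had a partner. Low recurrence was not common to all 16 runs of 3 or more windows, whose shares reached 61.1% (18 domains) in replicate 1 and 71.4% (14 domains) in replicate 2. Of the 3 runs described first, those on chromosomes 2 and 4 were fully covered by domains. In the run on chromosome 6 the last 5 windows were fully covered and the first 4 had gaps.

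In the 8 windows where no loop started in either replicate, level 0 domains covered 52.3% of bases in both replicates. In the loop-poor windows as a whole they covered 97.2% and 97.1%. These windows were unlike each other. Both chr1:160000001-161000000 and chr2:125000001-126000000 were fully covered. The window on chromosome 1 lay in a pair of domains, the larger of them 1540 kb long in replicate 1 and 1450 kb long in replicate 2. The windows chr1:296000001-297000000 and chr3:165000001-166000000 were covered over 78% and 52% of their bases, and chr6:11000001-12000000 over 53%. The remaining 3 windows were covered over 0, 25 and 10%. Loops that start elsewhere can still end in such windows or pass over them. Downstream anchors numbered 1 and 3 (replicates 1 and 2) in the window at chr1:160000001, 1 and 0 at chr1:296000001, and 2 and 2 at chr3:165000001. In replicate 2, loops lay over 100% of the bases of the windows at chr1:296000001, chr3:165000001 and chr6:11000001, and of the remaining 3 windows. Loops of at most 1 Mb lay over 49% of the window at chr3:165000001 and over 0% of the others of these in that replicate.

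Level 0 coverage was a little lower in loop-poor windows than in the other arm windows. It was 97.2% in replicate 1 and 97.1% in replicate 2, against 99.5% and 99.4%, a mean difference of -2.32 percentage points (SD 0.00686, n = 2). Coverage was under 90% in 19 loop-poor windows of each replicate (7.60%), where the background is 2.44% of arm windows in replicate 1 and 2.5% in replicate 2, and 228 and 224 loop-poor windows were covered in full. Most loop-poor windows thus had no gap. With all windows under 90% coverage left out before the choice, which removes gaps from both sets by construction, coverage differed by 0.214 percentage points.

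Level 0 domains were larger in loop-poor windows. A domain was assigned to the window that held its middle, which gave 574 level 0 domains in replicate 1 and 585 in replicate 2, against 4921 and 5094 in the other arm windows. Their median size was 330 kb in replicate 1 (quartiles 190 and 567.5 kb) and 310 kb in replicate 2 (170 and 560 kb). In the other arm windows it was 210 kb (130 and 340 kb) and 200 kb (120 and 330 kb). The ratio of medians was 1.57 in replicate 1 and 1.55 in replicate 2, and the mean difference of 115 kb (SD 7.07, n = 2) was larger than the 20 kb between the replicates of the loop-poor windows. Level 0 domains of at least 1000 kb were 8.36% and 8.72% of the domains in loop-poor windows, against 1.16% and 0.883%. The excluded middle, with medians of 310 and 320 kb, had sizes close to those of the loop-poor windows.

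**Figure D4:**
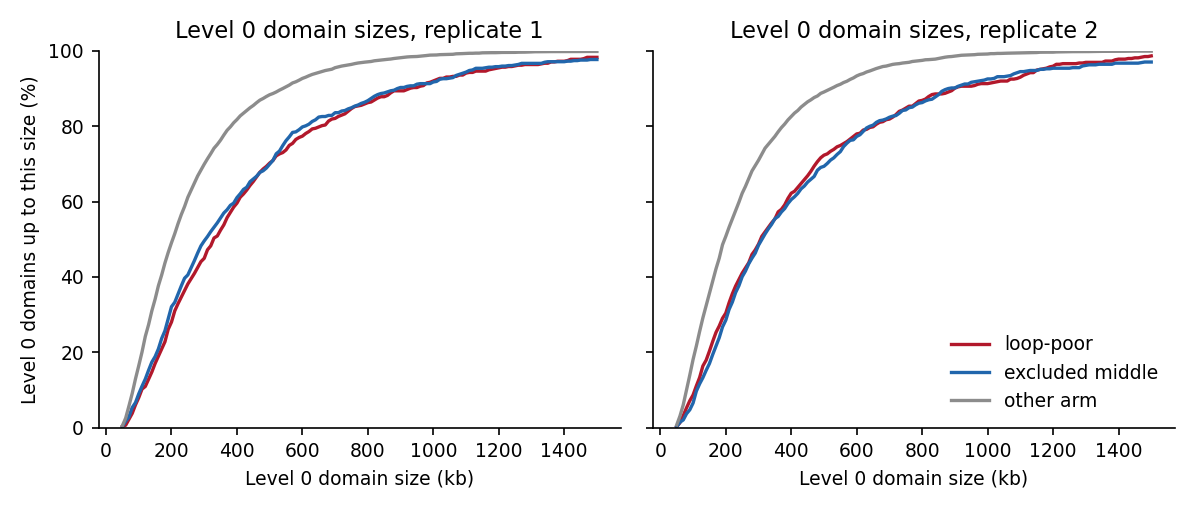
Cumulative distribution of level 0 domain sizes in replicate 1 (left) and replicate 2 (right). The x axis is the size in kb and the y axis the percentage of level 0 domains up to that size, for loop-poor windows (red), the excluded middle (blue) and the other arm windows (grey). The red curve runs right of the grey curve and close to the blue one, with medians of 330 and 310 kb for loop-poor windows and 210 and 200 kb for the other arm windows.

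Domain size also changes along the arm, so the windows were compared within the 3 sections of each arm. In the inner section the median level 0 size was 360 kb (replicate 1) and 330 kb (replicate 2) in loop-poor windows, against 250 kb in both for the other windows there. In the central section it was 310 and 300 kb, against 210 kb in both. In the outer section, with only 24 loop-poor windows, it was 260 and 235 kb, against 190 and 180 kb. The difference was therefore found in each section of the arm in both replicates. Averaged over the sections, weighted by loop-poor windows, the ratio was 1.39. Sections are shares of an arm, so they do not hold the distance from the midpoint constant. Inside the set, sizes were also listed by the summed loop count of the window, which the rule had used, without a test. The medians were 435 and 535 kb in windows with 1 to 3 loops, 375 and 315 kb with 4 to 6, 330 and 320 kb with 7 to 9, and 300 and 295 kb with 10 or 11. The 8 windows without a loop start held only 9 and 8 level 0 domains, with medians of 200 and 335 kb.

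Boundaries were correspondingly fewer. A loop-poor window held on average 2.28 level 0 boundaries in replicate 1 and 2.32 in replicate 2, against 3.73 and 3.88 in the other arm windows, and 2.36 and 2.32 in the excluded middle. Windows with no boundary were 11 of the loop-poor windows in replicate 1 (4.40%, background 1.31%) and 17 in replicate 2 (6.80%, background 1.56%). In both replicates at once, 7 loop-poor windows had none (2.80%, background 0.625%). Windows with at least 5 boundaries were 11 and 17 of the loop-poor windows, or 4.40% and 6.80%, where the background was 24.8% in replicate 1 and 29.3% in replicate 2.

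Some of the large domains were found at the same place in both replicates. A level 0 domain at chr3:70040001-71460000 (1420 kb) in replicate 1 ended at 71470000 in replicate 2 (1430 kb), with 6 sub-domains in each replicate and 5 and 4 loops inside. The domain chr5:51450001-52810000 (1360 kb) had the same boundaries in both, with 7 and 10 sub-domains and 6 and 12 loops inside. The domain chr4:58760001-59890000 (1130 kb) was also identical, with 7 and 4 sub-domains and 5 and 6 loops. These 3 were picked for boundaries within 10 kb in both replicates, and their number of sub-domains was equal only on chromosome 3. In total 149 level 0 domains of loop-poor windows had a level 0 partner, which is 26.0% of those of replicate 1 and 25.5% of those of replicate 2, against 31.9% and 30.8% in the other arm windows.

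More of the level 0 domains in loop-poor windows contained nested sub-domains. The share was 49.1% in replicate 1 (282 of 574, 95% Wilson interval 45.1 to 53.2%) and 49.7% in replicate 2 (291 of 585, 45.7 to 53.8%), against 41.7% (40.3 to 43.0%) and 42.5% (41.1 to 43.9%) in the other arm windows. Domains with at least 2 nested layers were 26.5% and 25.3%, against 18.3% and 18.5%. Sub-domains covered 69.9% and 71.3% of the bases, against 64.9% and 65.8%. In the excluded middle the share of level 0 domains with a sub-domain was 44.6% (40.9 to 48.4%) and 48.3% (44.5 to 52.1%), with intervals that overlap those of the loop-poor windows. Counted per window, however, sub-domains were fewer, with 4.61 and 4.74 per loop-poor window against 5.50 and 5.72.

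Larger domains hold sub-domains more often in both sets, and within size classes the nesting difference turned round. Among level 0 domains of 150 to 300 kb, 17.9% in replicate 1 and 25.7% in replicate 2 had a sub-domain in loop-poor windows, against 36.6% and 39.7% in the other arm windows. Among those of 300 to 600 kb the shares were 65.1% and 65.3%, against 81.5% and 84.2%. From 600 to 1000 kb they were 94.0% and 95.1%, against 98.5% and 99.4%, and from 1000 kb on every domain of both sets had one. Below 150 kb hardly any were split, with 2.35% and 2.86% against 2.82% and 3.09%. With each of the 5 size classes weighted by its number of loop-poor domains, the mean difference was -11.0 percentage points, in place of 7.36 (SD 0.161, n = 2) without classes. Within the sections of the arm, weighted by loop-poor windows, it was 4.15 points. From 150 to 1000 kb, then, a level 0 domain of a loop-poor window was split less often than one of the same size class elsewhere on the arms, and the larger share over all sizes goes with the larger domains there.

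Domains of loop-poor windows were less often called at the same place in both replicates. With both boundaries required within 10 kb, 441 of 1726 domains of all levels in replicate 1 (25.6%, 95% Wilson interval 23.5 to 27.7%) and 443 of 1770 in replicate 2 (interval 23.1 to 27.1%) had a partner. In the other arm windows the shares were 41.7% of 12355 (40.8 to 42.6%) and 40.2% of 12815 (39.4 to 41.1%). The mean difference was -15.7 percentage points (SD 0.701, n = 2), and -7.61 where boundaries had to be identical. Level 0 domains had a partner of any level in 34.3% and 34.5%, against 43.0% and 44.2%. With a level 0 partner required, the shares were 26.0% and 25.5%, against 31.9% and 30.8%. The other arm windows held more boundaries and sub-domains per window, and the part of this in the shares was not tested. The excluded middle had shares of 26.4% and 25.8% over all levels. Nested domains share boundaries with the domains around them, so these intervals treat as independent what is not.

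This difference was also set against domain size. Below 150 kb, 28.6% and 26.7% of domains in loop-poor windows had a partner, against 48.5% and 45.1% in the other arm windows. For 150 to 300 kb the shares were 26.3% and 25.6%, against 40.7% and 39.8%, and for 300 to 600 kb they were 24.4% and 25.5%, against 31.6% and 31.5%. From 600 to 1000 kb the order was the other way, with 22.6% and 22.1% against 19.0% and 20.8%, over 155 and 154 domains in loop-poor windows. Above 1000 kb it was 10.3% and 9.52% against 13.1% and 16.0%, over 58 and 63 domains. With each class weighted by its number of loop-poor domains, the mean difference was -11.8 percentage points. The widest gap was that of domains below 150 kb. Up to 600 kb, recurrence stayed between 24.4% and 28.6% in loop-poor windows, while it lay between 31.5% and 48.5% in the other arm windows.

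**Figure D5:**
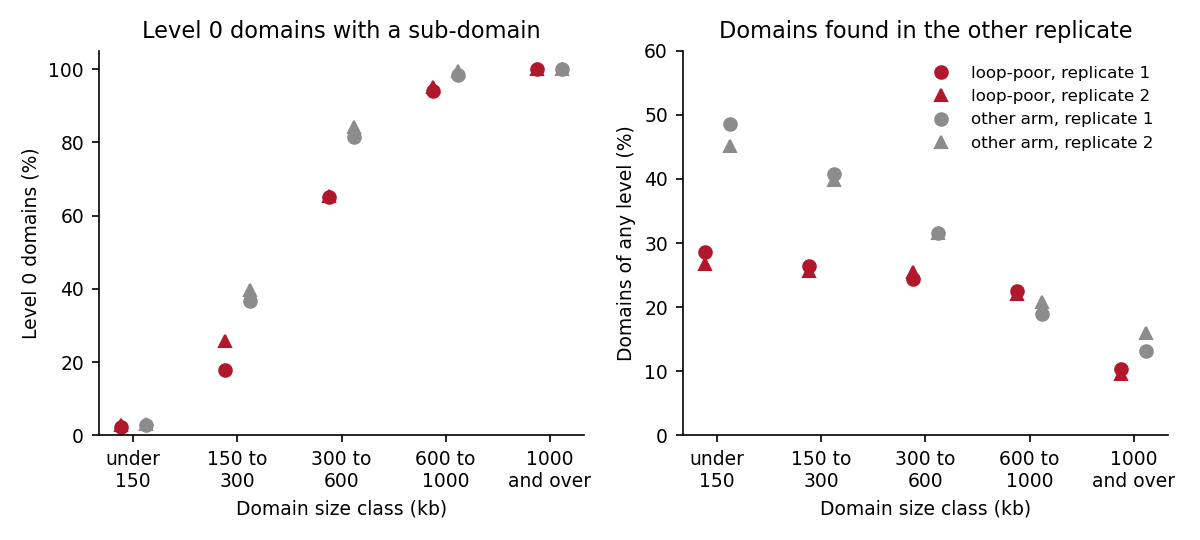
Level 0 domains with a sub-domain (left, percent) and domains of any level found in the other replicate (right, percent) by size class in kb, for loop-poor windows (red) and the other arm windows (grey) in replicate 1 (circles) and replicate 2 (triangles). Nesting is lower in loop-poor windows from 150 to 1000 kb, for example 65.1% and 65.3% against 81.5% and 84.2% at 300 to 600 kb, and recurrence is lower up to 600 kb.

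The domain measures were repeated in windows chosen by the loops of the other replicate alone, so that no call of the same library entered the choice, except that recurrence compares both libraries. The median level 0 size was 310 kb in both replicates, against 210 kb in replicate 1 and 200 kb in replicate 2. Boundaries per window were 2.42 and 2.40, against 3.70 and 3.86, and 24.6% and 24.1% of domains recurred, against 41.9% and 40.4%. The nested share was 46.1% and 50.7%, against 42.0% and 42.4%. All 4 measures kept their direction in both replicates.

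Each of the 8 domain measures that were compared had the same sign in replicate 1 and replicate 2. The 8 were the size, number of boundaries, coverage and recurrence of domains and 4 measures of nesting. With 2 replicates, a two-sided exact permutation of the signs gave p = 0.5 for each of them, which is the smallest p this design allows, so none can pass 0.05 and p-values adjusted over the 8 would be no lower. Domain and loop calls come from the same contacts of each library, so they are not independent readouts.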

How the data were processed

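The authors filtered the Hi-C reads, mapped them to B73 AGPv4 with Juicer, and called loops with HICCUPS of Juicer Tools 1.9.9 in replicate 1 and 1.14.08 in replicate 2. Hierarchical domains came from runHiC matrices and HiTAD, run with default parameters on each replicate alone. For each loop, the deposited lists hold the raw count of contacts (whole numbers), the expected contacts, a signal that the authors' software derived from 4 local backgrounds, and a q-value for each background. The deposited q-values reached 0.0983 in replicate 1 and 0.0977 in replicate 2. The lists hold calls only, so depth per window is unknown and low coverage and absence of loops cannot be told apart.

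The largest coordinate listed on a chromosome stood for its length, and windows had to lie wholly outside the excluded zones. Coordinates are printed from 1. A loop was counted in the window that holds the start of its upstream anchor. Loops were shared when both anchors overlapped by at least 1 bp, and domains when both boundaries lay within 10 kb. Wilson intervals at 95% cover counting error only. Each domain measure was compared per replicate, with an exact two-sided sign permutation over the 2 replicates. Python 3.11.15, numpy 2.4.6, pandas 2.3.3, scipy 1.17.1 and matplotlib 3.10.9 were used, and the scripts were tested on simulated lists with known answers.

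The members, the measures and the alternatives were chosen with earlier results of these data known. Windows and domains named are the 3 longest runs, the first 5 windows without a loop start and the 3 longest level 0 domains found in both replicates. Runs of equal length were ordered by chromosome and then by start, and the run tied with the third is also named. Also named are the loop with identical anchors and the most contacts, and the window with the most downstream anchors. Other windows without a loop start are given by their coverage. Sequence, genes, repeats, open chromatin and expression were not analysed here.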

Additional observations from a re-analysis of the deposited data

How the results depend on the processing

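For 12 results, 110 alternatives were computed, of which 17 were chosen after seeing the data. Values stayed within 1 SD between replicates (for position and runs, which have 1 value, within the 95% Wilson interval) in 46, moved further in 62, and changed sign in 2. As first given, the loop-poor to other ratios were 0.395 for loops of the replicate not used in the choice, 0.327 for downstream anchors, 0.605 for boundaries and 1.56 for level 0 size. The differences were -2.32 percentage points for coverage, 7.36 for nesting, -15.7 for recurrence and -25.5 for bases under a loop.

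With only windows below 11 loops, loops were at 0.349, boundaries 0.589, size 1.61, coverage -2.65, nesting 8.63 and recurrence -17.8. With all ties, coverage was -2.19 and nesting 7.88. With either anchor placing a loop, loops were at 0.429, boundaries 0.595, size 1.66, coverage -2.49, nesting 8.45 and recurrence -16.5. With 10-kb anchors, loops were at 0.417, downstream anchors 0.297, boundaries 0.625, size 1.51, coverage -2.56 and nesting 5.88. With q at most 0.01, boundaries were at 0.614, coverage -2.46, nesting 7.98 and recurrence -16.7. With windows shifted by 0.5 Mb, loops were at 0.369, boundaries 0.594, size 1.59, coverage -2.37, nesting 6.06 and recurrence -14.7. With replicates weighted equally, size was 1.59, coverage -2.34 and nesting 8.36. Within the 3 sections of the arm, loops were at 0.451, downstream anchors 0.376, boundaries 0.661, size 1.39, coverage -2.48 and nesting 4.15.

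With domains that overlap a window, size was 1.62 and nesting 9.0. With domains of at least 100 kb, size was 1.52, nesting 6.09 and recurrence -14.0. Recurrence was -7.61 with identical boundaries and -12.4 within 50 kb. Bases under loops of at most 1 Mb differed by -30.8. Of the choices made after seeing the data, windows at least 90% in level 0 domains gave loops at 0.416, boundaries 0.594, size 1.66, nesting 9.07 and a coverage difference that reversed to 0.214, as leaving out windows with gaps would by construction shrink it. Windows chosen by the other replicate gave boundaries at 0.637, size 1.51, coverage -2.43, nesting 6.20 and recurrence -16.8. Within size classes weighted by loop-poor domains, recurrence was -11.8 and nesting reversed to -11.0.

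Without 1 replicate, downstream anchors ranged 0.304 to 0.313, boundaries 0.606 to 0.606, size 1.55 to 1.62, coverage -2.59 to -2.32, nesting 7.73 to 10.1, the inner share 65.2 to 66.8% and windows adjoining another 55.2 to 57.6%. Recurrence and loops of the unused replicate need both replicates. Position and runs have no value within sections, and equal weighting has none for a choice by 1 replicate. No paired analysis was possible because the series has 1 group. The lists hold no depth, 2 replicates cannot reach p below 0.5, and windows without calls cannot be told apart from windows without contacts.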
